A study of Bos taurus with 129 samples.

Results

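The comparison was between day 28 and day 13 in cattle that the labels give as free of disease, with each animal set against itself. It took in the 11 healthy animals that have a library on both days, which is 22 of the 59 libraries from healthy cattle in a series that also holds 70 libraries from BRD cattle, those treated for bovine respiratory disease. Of these cattle, 3 received the AAC supplement (amino acid-complexed copper, cobalt, manganese and zinc), 4 the INR supplement (the same metals as sulfates) and 4 the COMBO supplement (the complexed minerals plus an oral drench before shipment and on day 0). Supplements were pooled here, and every animal also shared the arrival procedures: a long truck journey, vaccination against respiratory viruses and doramectin on day 0, and a second vaccination on day 21, which is 7 days before the day 28 blood. Pens were rotated every 14 days, so time since arrival, revaccination, age and pen changed together between the 2 days and cannot be told apart. The steers were commercial crossbreds, and the blood was whole jugular blood in an RNA-stabilizing tube, so that fewer cells of a type and less RNA per cell cannot be told apart either. The BRD cattle form a separate set of 14 animals with both days, of which 4 received AAC, 3 COMBO and 7 INR. Disease and the mix of supplements thus differ together between the 2 sets. The BRD cattle are used below as libraries outside the healthy comparison and, in an added fit, together with the healthy cattle.

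Whole blood RNA mixes the messages of neutrophils, lymphocytes, monocytes, platelets and immature red cells. A vaccine or viral exposure is known to raise interferon-stimulated genes within days and to be followed by B cell and plasma cell activity, while newly received cattle also change their diet and their exposure to pen mates. Cattle carry many gamma-delta T cells in blood, and their receptor gamma chain is encoded by several constant-region genes.

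Levels are given in CPM, a library's counts brought to a common total with TMM scaling factors. Library totals ran from 31613545 to 51136446 counts at day 13 (median 42980606) and from 37182847 to 59809837 at day 28 (median 46748977). The total was higher at day 28 in 7 of 11 animals (exact sign-flip permutation test over animals, two-sided p = 0.0752). None of 5 library properties differed between days after Benjamini-Hochberg adjustment (lowest adjusted p = 0.256, exact permutation tests). Erythroid genes took 0.0476% to 2.54% of counts at day 13 and 0.0647% to 2.02% at day 28. The first principal component carried 12.1% of the variance, and the day 13 library of INR animal 50 lay farthest out on it. Library numbers follow the order of days, so library order and day cannot be told apart.

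Few genes passed the threshold of the main test between the 2 days, and nearly all of those that passed were higher at day 28. Of 16184 genes tested, 22 passed a false discovery rate (FDR) below 0.10 in edgeR's quasi-likelihood test with animal as a block, which is 0.136% of the genes (8.03% had an unadjusted p below 0.05). Of these, 19 were higher at day 28 (0.117%) and 3 were lower (0.0185%). Their FDR lay between 0.0719 and 0.0964, and none was below 0.05. An unadjusted p below 0.05 was reached by 800 genes that were higher (4.94%) and 499 that were lower (3.08%). Across all genes the median log2 fold change was 0.0047 and 52% of genes had a positive value. Changes were small: 12 of the 19 genes that rose had a log2 fold change below 0.5, and in all 22 the range of day 28 values overlapped that of day 13, so that the difference was one within animals. All 11 animals were higher at day 28 in 14 of the 19, and in 0.321% of all genes. The paired test selects genes for such agreement, so this count is no separate support for them.

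The calls changed with the pairing and with single animals left out. Without the animal block no gene passed the threshold, while 172 genes that were higher and 238 that were lower had an unadjusted p below 0.05. Leaving out any one of animals 3, 6, 10, 30, 42, 49 or 57 left 0 calls, and leaving out animal 34 or animal 46 left 1. Leaving out animal 7 gave 34 genes higher and 3 lower, and leaving out animal 50 gave 9 and 3.

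**Figure D1:**
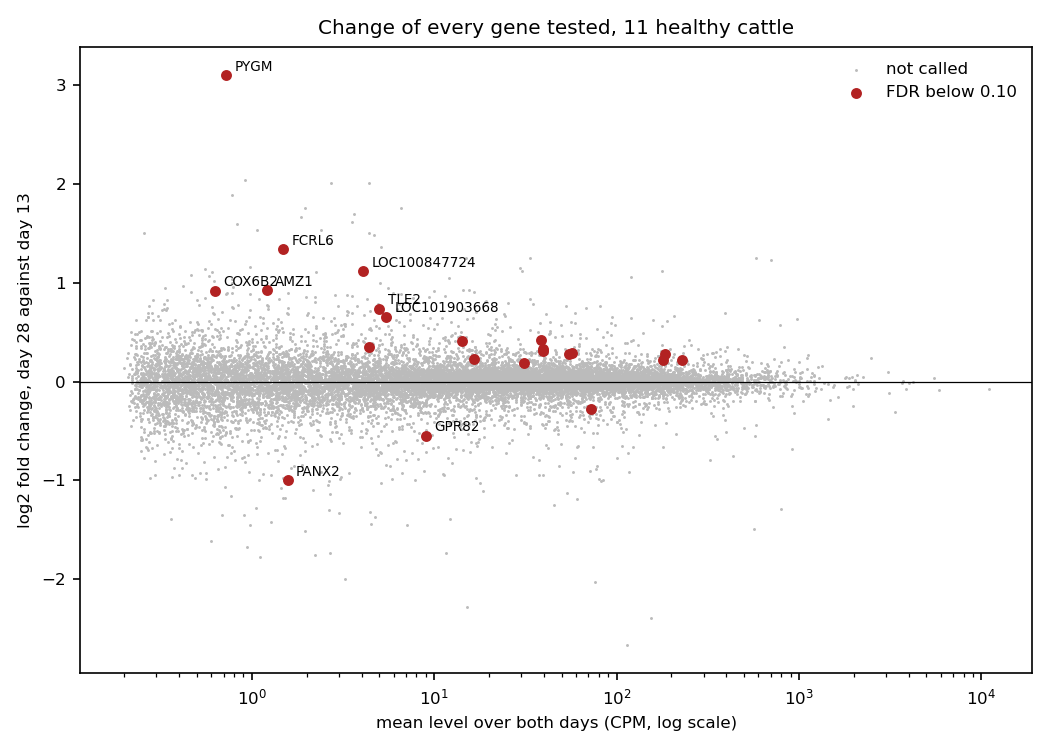
Log2 fold change from day 13 to day 28 (vertical axis) against the mean level over both days in CPM (log axis) for the 16184 genes tested in 11 healthy cattle. Red points are the 22 genes with FDR below 0.10, and 19 of them lie above 0.

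The genes that rose are taken here by what they are known to do. Receptors and signalling proteins come first. FCRL6, an Fc receptor-like protein known from cytotoxic lymphocytes, ranged from 0.337 to 2.46 CPM at day 13 (median 0.676) and from 0.639 to 4.14 CPM at day 28 (median 2.03). It was higher in 11 of 11 animals, although the ranges overlapped, with a log2 fold change of 1.34 (SE 0.19, FDR 0.0719). KIT, the receptor for stem cell factor that marks mast cell and early blood cell lineages, went from 7.71 to 19.6 CPM (median 11.02) to between 11.9 and 25.2 CPM (median 14.5). Its log2 fold change was 0.41 (SE 0.07, FDR 0.0964), again with every animal higher. RHBDF2, a rhomboid-like protein that escorts the protease releasing TNF, had a median of 208 CPM at day 13 (149 to 287) and 249 CPM at day 28 (195 to 330), a log2 fold change of 0.22 (SE 0.04, FDR 0.0964). CMTM7, a membrane protein of the chemokine-like factor family, had medians of 168 and 186 CPM and rose in 10 of 11 animals (log2 fold change 0.28, SE 0.05, FDR 0.0964). TLE2, a Groucho-type corepressor of transcription, had values of 1.54 to 7.203 CPM at day 13 (median 3.47) and 3.06 to 9.39 CPM at day 28 (median 5.98), with a log2 fold change of 0.74 (SE 0.12, FDR 0.0881) and all animals higher.

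Enzymes and mitochondrial proteins come next. PYGM, the muscle form of glycogen phosphorylase, had the largest fold change among the 22, at a very low level. At day 13 its level was 0 to 0.449 CPM (median 0.0282), and 6 of 11 libraries had at most 1 count. At day 28 it was 0.0219 to 5.62 CPM (median 0.551), with 1 to 240 counts. It was higher in 10 of 11 animals, and COMBO animal 57 and INR animal 50 stood far above the rest at day 28 (log2 fold change 3.10, SE 0.42, FDR 0.0719). TK2, the mitochondrial thymidine kinase, went from a median of 33.1 CPM (24.4 to 47.6) to 42.9 CPM (33.4 to 61.8), which is a log2 fold change of 0.31 (SE 0.05, FDR 0.0719). SIRT5, a mitochondrial enzyme that removes succinyl groups from proteins, had the smallest fold among the genes that rose: the median was 28.8 CPM at day 13 (21.3 to 38.02) and 35.3 CPM at day 28 (25.2 to 45.3), with a log2 fold change of 0.19 (SE 0.03, FDR 0.0719). Both were higher in 11 of 11 animals. COX6B2, a tissue-restricted subunit form of cytochrome c oxidase, was at low level throughout (medians 0.442 and 0.791 CPM) and higher in 10 animals (log2 fold change 0.92, SE 0.16, FDR 0.0964). CERS4, a ceramide synthase, was higher in all 11 animals (medians 50.2 and 60.24 CPM, log2 fold change 0.28, SE 0.05, FDR 0.0964).

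The remaining genes act at the cell surface, in vesicles or in less known roles. HPSE, the heparanase that cuts heparan sulfate chains, lay between 21.3 and 48.9 CPM at day 13 (median 34.96) and between 26.2 and 65.01 CPM at day 28 (median 46.2). Its log2 fold change was 0.33 (SE 0.05, FDR 0.0719), with every animal higher. ADAM11, a disintegrin-type protein without protease activity, spread from 0.197 to 86.199 CPM among animals at day 13 (median 25.9) and from 0.301 to 98.6 CPM at day 28 (median 37.7). That spread between animals was far wider than the change within them, and all 11 animals were higher at day 28 (log2 fold change 0.42, SE 0.07, FDR 0.0771). MYO1C, an unconventional myosin (log2 fold change 0.22), and HPS4, a part of a complex for lysosome-related organelles (log2 fold change 0.28), were both at FDR 0.0964. The metallopeptidase AMZ1 (0.93), C10H15orf59 (0.35) and the armadillo-repeat protein ARMC6 (0.22) rose at the same FDR, and these log2 fold changes were 1.90, 1.28 and 1.17 as linear folds. Of the genes without a name, LOC100847724 had medians of 1.71 and 4.25 CPM (log2 fold change 1.12, SE 0.17, FDR 0.0719) and LOC101903668 had medians of 4.22 and 6.91 CPM (log2 fold change 0.66, SE 0.11, FDR 0.0964). Both were higher in 11 animals. The 5 genes just outside the threshold were SCAMP4 (FDR 0.105), MAST2, LOC101903632, C23H6orf52 and HSF4 (FDR 0.107).

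Of the 3 genes that fell, PRF1 encodes perforin, the pore-forming protein of killer lymphocytes. Its median was 81.8 CPM at day 13 (49.1 to 121.6) and 63.7 CPM at day 28 (37.4 to 98.1), lower in 10 of 11 animals, with a log2 fold change of -0.28 (SE 0.05, FDR 0.0964). PANX2, a pannexin channel protein, went from 1.11 to 4.76 CPM (median 1.69) to between 0.481 and 1.99 CPM (median 0.874). It was lower in all 11 animals, with a log2 fold change of -0.99 (SE 0.15, FDR 0.0719). GPR82, an orphan G protein-coupled receptor, had a median of 10.9 CPM at day 13 (5.92 to 13.4) and 7.39 CPM at day 28 (4.94 to 9.56), lower in all 11 animals (log2 fold change -0.55, SE 0.09, FDR 0.0719). The next genes by p, GCNT1 (-0.23, FDR 0.158) and GAREM1 (-0.50, FDR 0.172), did not pass. Both were lower in 11 of 11 animals, as were 0.0927% of all genes, but a choice by smallest p favours such genes.

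**Figure D2:**
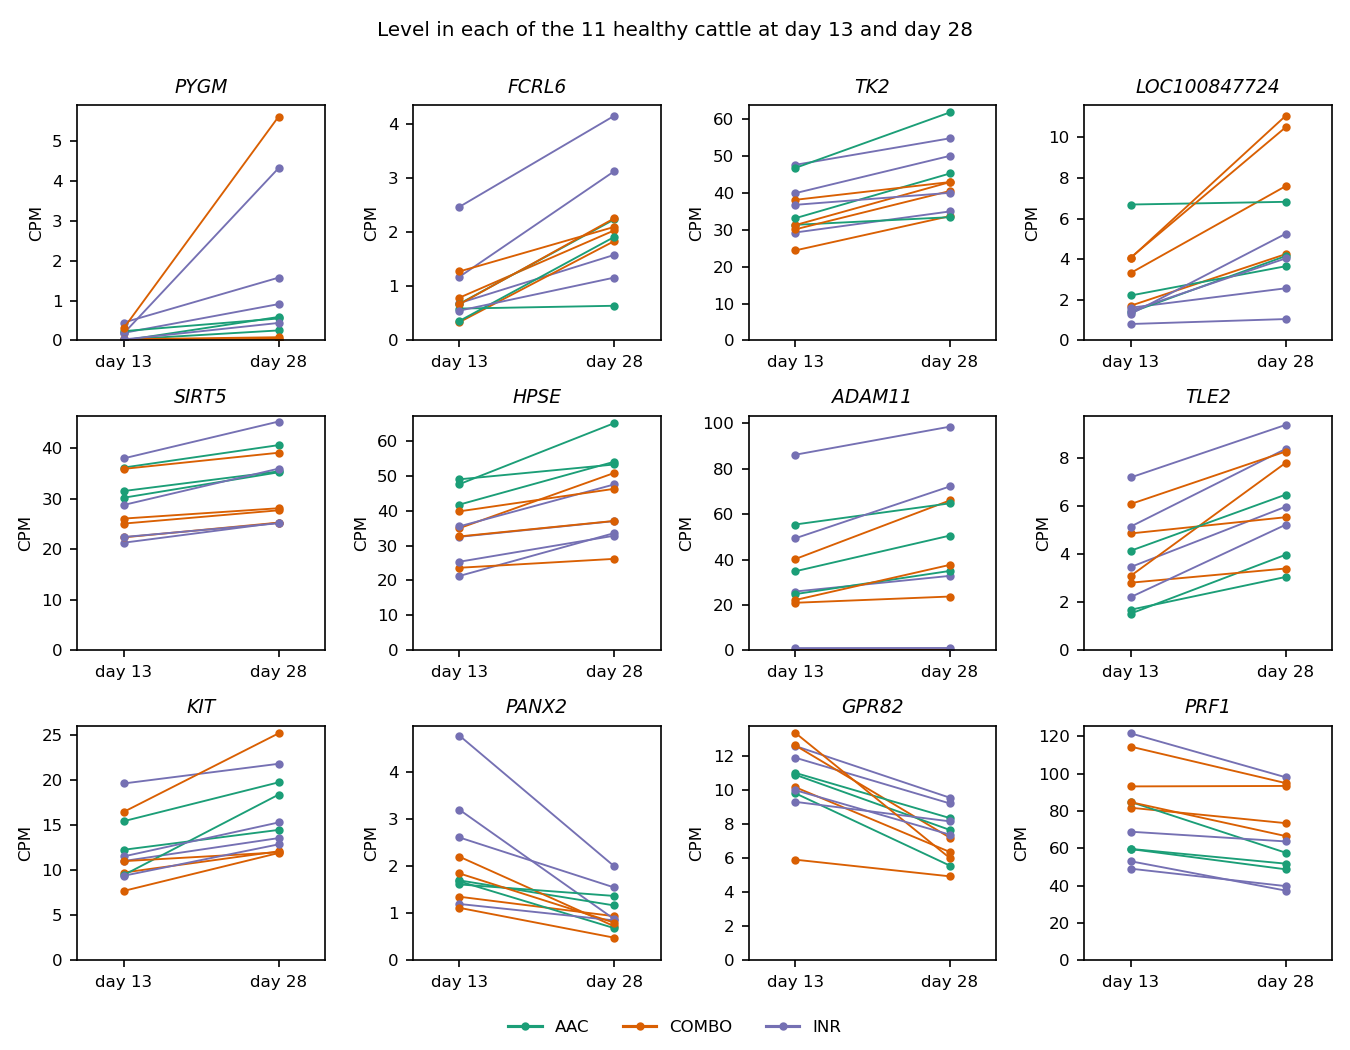
Level in CPM (vertical axis, from 0) of 12 called genes on day 13 and day 28, 1 line for each of the 11 healthy cattle, coloured by supplement. Lines rise in 11 of 11 animals for FCRL6, TK2, SIRT5 and HPSE and fall in 11 of 11 for PANX2 and GPR82, while the ranges of the 2 days overlap in every panel.

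Levels on days 0, 45 and 60 come from the same 11 animals, scaled over their libraries of 5 days, and are given without a test. The genes were chosen on their day 13 and day 28 values, so how those days rank among the 5 is in part set by that choice. FCRL6 had medians of 1.23, 0.665, 1.98, 2.01 and 2.02 CPM on the 5 sampling days in order (days 0 and 13, then 28, 45 and 60), so that it was lowest on day 13 and level afterwards. HPSE was at 24.9, 34.8, 45.2, 35.6 and 37.9 CPM on the same days, with its highest median on day 28. KIT was at 17.6 CPM on day 0, 10.9 on day 13 and 14.2 on day 28, and thus below its arrival level on both days. GPR82 had medians of 10.4 CPM on day 0 and 10.7 on day 13 and lay between 7.199 and 7.49 CPM on the 3 later days. PRF1 was lowest on day 28 (medians 98.7, 81.5, 62.1, 77.1 and 87.7 CPM).

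The same 2 days in the 14 BRD cattle gave libraries of other animals, none of them shared with the healthy set. Sampling days, revaccination and the order of libraries by day were common to both sets, as were some pens. Agreement between the sets therefore does not separate these from one another. There, 30 of 16153 genes were called (0.186%), 28 of them higher (0.173%) and 2 lower (0.0124%). Of the 22 genes called in healthy cattle, 21 were tested in BRD cattle, and all 21 changed in the same direction, against 64.4% of the 15982 genes tested in both sets. In BRD cattle 13 of them had an unadjusted p below 0.05, against 3.7% of all genes in the higher and 4.08% in the lower direction. The 5 genes called in both sets were AMZ1, COX6B2, FCRL6, LOC101903668 and GPR82, which is 22.7% of the healthy and 16.7% of the BRD calls. Conversely, all 30 genes called in BRD cattle had the same direction in healthy cattle, and 25 had an unadjusted p below 0.05. GPR82 had a log2 fold change of -0.55 in both sets, and FCRL6 rose by 1.34 (SE 0.19) in healthy and 1.71 (SE 0.28) in BRD cattle. Others had values nearer 0 in BRD cattle: HPSE was at 0.11 (SE 0.08), PRF1 at -0.08 (SE 0.11), CMTM7 at 0.07 (SE 0.09) and PANX2 at -0.18 (SE 0.16), none with an FDR of the difference below 1. PYGM did not pass the filter on low counts over the BRD libraries, so it was not in their own fit. Its counts there were 0 to 27 at day 13 (median 1) and 1 to 830 at day 28 (median 31.5). They were higher at day 28 in 13 of 14 animals.

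The difference between the sets was tested as an interaction over 17090 genes, and no gene passed in edgeR's quasi-likelihood test at FDR below 0.10 (287 genes, 1.68%, had an unadjusted p below 0.05). DESeq2 called 2 genes and limma voom 0. The smallest p belonged to KPNA1, an importin that carries proteins into the nucleus (log2 difference BRD minus healthy 1.51, SE 0.40, p = 0.00091, FDR 1). LOC112442757 followed (4.06, SE 1.10) and then TARP, a T cell receptor gamma alternate reading frame transcript (3.43, SE 0.96). PANX2 had the clearest difference among the genes called in healthy cattle (0.81, SE 0.23, p = 0.00189, FDR 1). For FCRL6 the difference was 0.37 (SE 0.37) and for GPR82 0.00 (SE 0.15).

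**Figure D3:**
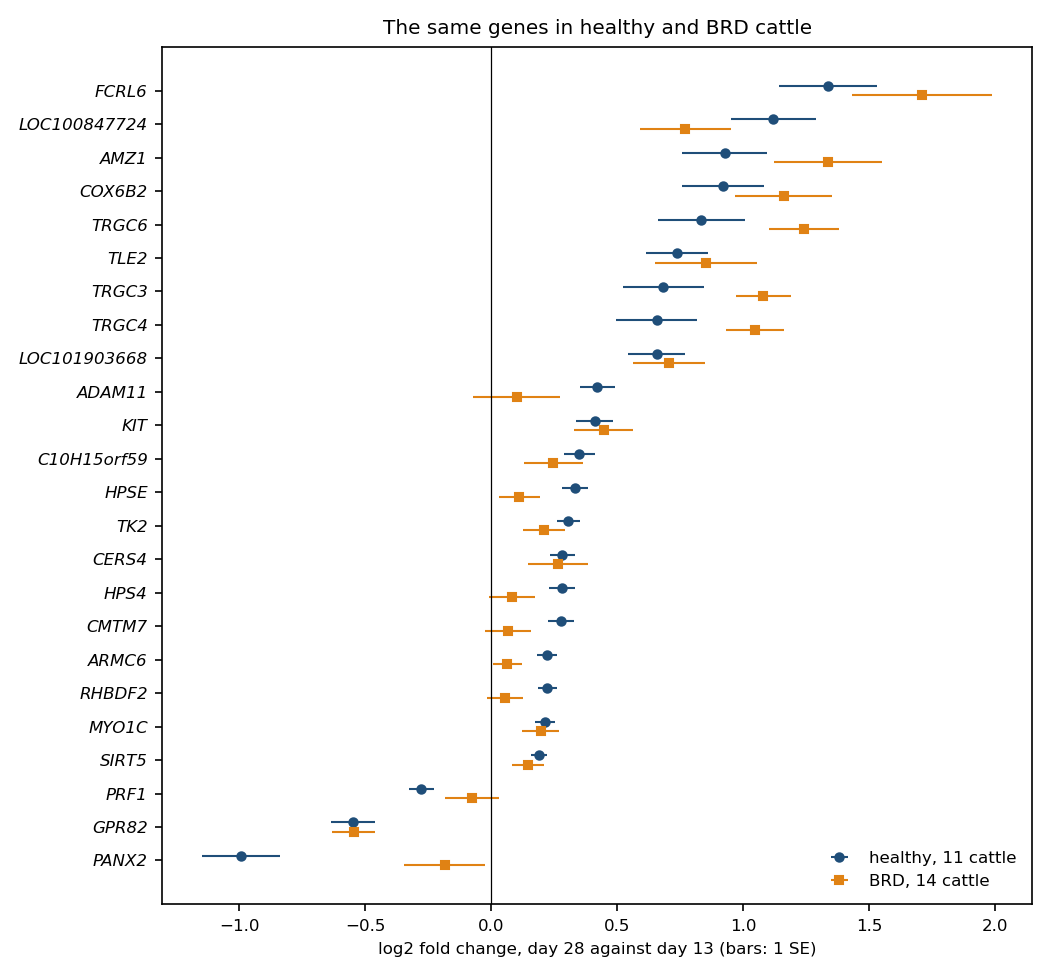
Log2 fold change from day 13 to day 28 with 1 SE in 11 healthy cattle (circles) and 14 BRD cattle (squares), for the 21 genes called in healthy cattle that were tested in both sets and for 3 T cell receptor gamma constant genes. All 21 lie on the same side of 0 in both sets.

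The T cell receptor gamma constant genes, which belong to the receptor of gamma-delta T cells, led the BRD calls and moved the same way in healthy cattle without passing there. They were chosen after these values were seen, and as TRGC3, TRGC4 and TRGC6 belong to 1 family of related genes, how the counting divided reads among them is uncertain and was not tested. TRGC6 went from a median of 19.1 CPM (9.03 to 56.3) to 41.6 CPM (21.9 to 74.1) in healthy cattle, higher in 11 of 11 animals with a log2 fold change of 0.83 (SE 0.17, FDR 0.169). TRGC3 (0.68, SE 0.16, FDR 0.240) was higher in 10 and TRGC4 (0.66, SE 0.16, FDR 0.242) in 11 animals. In BRD cattle their log2 fold changes were 1.24, 1.08 and 1.05, with FDR 0.00090, 0.00068 and 0.00090 and all 14 animals higher. The median of TRGC3 in healthy cattle was 40.98, 28.1, 45.36, 52.4 and 59.996 CPM on the 5 sampling days in order. Of 11 tested markers of the WC1+ gamma-delta subset, 9 had negative values (median log2 fold change -0.17) and 0 were called. CD163L1 of this list was at 0 to 8.88 CPM on both days (log2 fold change 2.01, FDR 0.275), and CCR6 was at -0.28 (FDR 0.308).

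With the BRD cattle added to the healthy ones, 25 animals in 1 fit gave 307 genes higher (1.88%) and 159 lower (0.975%) at FDR below 0.10. This fit was chosen after the values were seen and shares the healthy libraries, so it is not a separate test of them. Of the 22 genes called in healthy cattle alone, 17 were called in it. PYGM, GPR82, FCRL6, TRGC3, TRGC4 and TRGC6 were among the genes with the smallest p, with log2 fold changes of 3.69, -0.54, 1.54, 0.91, 0.88 and 1.07.

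Genes stimulated by type I interferon, the antiviral program induced by that cytokine, were lower at day 28 in their values but none was called. With 0.136% of all genes called, the lack of a called member says little about any of the gene lists. In 33 of 33 measured members the log2 fold change was negative (median -0.43, against 0.0047 for all genes), 7 had an unadjusted p below 0.05 and 0 passed the FDR. The summed level went from a median of 6529 CPM at day 13 (3800 to 10317) to 4641 CPM at day 28 (3043 to 9684). It was lower in 10 animals and higher in COMBO animal 6, which went from 4214 to 9684 CPM. Without that animal the median log2 fold change was -0.57 and 23 members had an unadjusted p below 0.05, still with 0 called. Leaving out animal 3, 46 or 49 left 0 with an unadjusted p below 0.05. OAS1Y, which makes the 2-5A signal that activates an RNA-cutting enzyme, had medians of 56.2 and 22.4 CPM (log2 fold change -1.25, SE 0.49, FDR 0.547), and SIGLEC1, a sialic acid-binding receptor of monocytes and macrophages, had medians of 13.6 and 5.98 CPM (log2 fold change -0.82, FDR 0.568). ISG15, a ubiquitin-like modifier, and RSAD2, which makes a chain-ending nucleotide, were at -1.01 (FDR 0.638) and -0.98 (FDR 0.616). In BRD cattle the median of the list was -0.20, with 0 members below an unadjusted p of 0.05. The summed level in healthy cattle had medians of 5854, 6446, 4565, 4838 and 4055 CPM on the 5 sampling days in order, and single animals reached 15996 CPM on day 0 and 14377 CPM on day 45.

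Genes of B cells leaned the other way. Positive values were found in 21 of 23 members (median log2 fold change 0.13), 12 had an unadjusted p below 0.05 and none was called. The summed level was higher at day 28 in 10 of 11 animals, with medians of 3846 and 4238 CPM. MS4A1, which encodes CD20, had medians of 610 and 722 CPM (log2 fold change 0.23, SE 0.06, FDR 0.242) and did not pass. In BRD cattle the median was 0.11 with 6 members below an unadjusted p of 0.05, and the fit of 25 animals called 4 of 23 members higher, namely PAX5, FCRLA, CR2 and SPIB, against 1.88% of all genes. Of the plasma cell genes 8 of 23 were positive in healthy cattle (median -0.03), and the median was 0.07 in BRD cattle. TNFRSF13B, the receptor TACI for B cell survival factors, was at 0.25 (FDR 0.214) and FCRL5 at 0.18 (FDR 0.315). These 2 of 23 members were called higher in the fit of 25 animals (FDR 0.0641 and 0.0532), against 1.88% of all genes. Cell cycle genes had 21 of 39 positive (median 0.00), none with an unadjusted p below 0.05, and their smallest p values were those of PLK1 (0.05) and BUB1 (-0.14).

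Cholesterol synthesis genes had small positive values in most members, and 0 of 23 were called. Of these, 20 were positive (median log2 fold change 0.10) and 8 had an unadjusted p below 0.05, a count that was 3 without animal 42 and 12 without animal 34. The summed level was higher at day 28 in 8 of 11 animals. LSS, which closes the sterol ring, had medians of 39.1 and 48.6 CPM (0.22, SE 0.06, FDR 0.315) and PMVK, a kinase of the mevalonate pathway, was at 0.19 (SE 0.06, FDR 0.404). In BRD cattle the list had a median of 0.15 and 10 members with an unadjusted p below 0.05. The fit of 25 animals called 8 members higher, among them SQLE, LSS, CYP51A1, FDFT1, PMVK, MSMO1 and INSIG1, against 1.88% of all genes. The summed level in healthy cattle was lowest on day 0 (median 1377 CPM) and was 1642, 1824, 1778 and 1664 CPM on days 13, 28, 45 and 60.

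**Figure D4:**
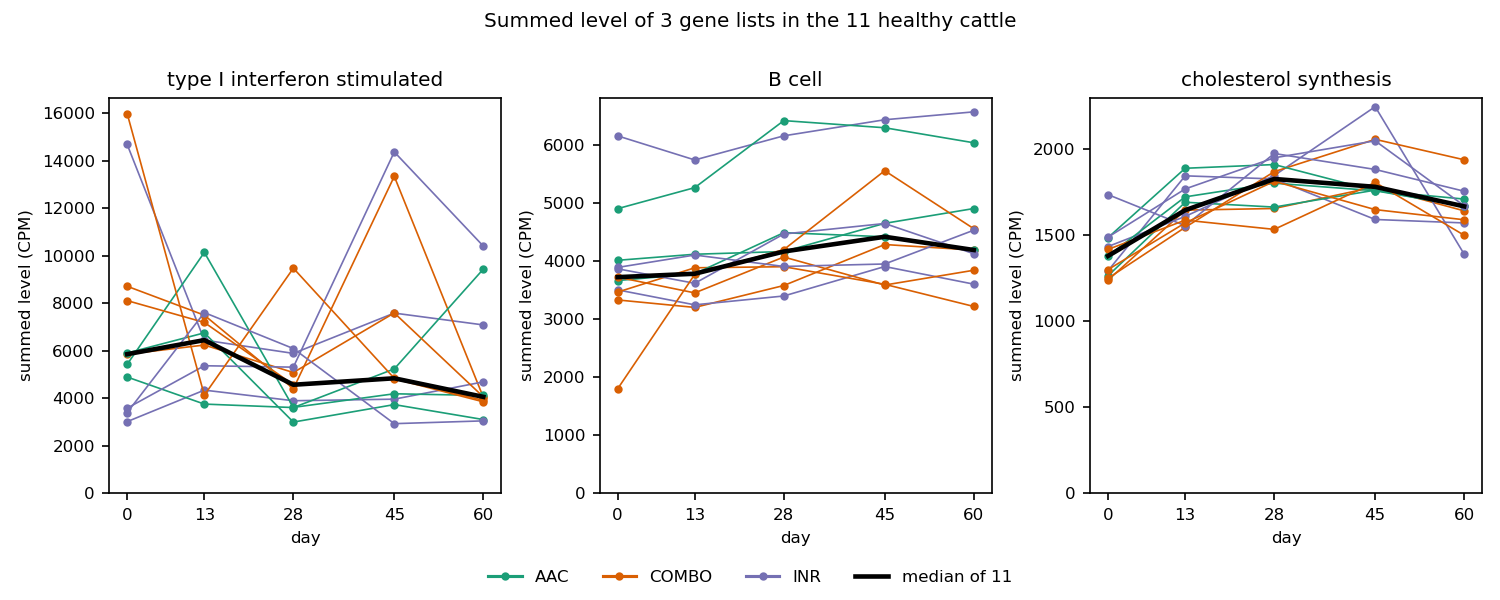
Summed level in CPM (vertical axis, from 0) of 3 gene lists over the 5 sampling days (horizontal axis), with 1 line for each of the 11 healthy cattle coloured by supplement and the daily median in black. The interferon lines fall from day 13 to day 28 in 10 of 11 animals, with COMBO animal 6 rising, and single animals peak on other days.

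Cytotoxic and other lymphocyte lists were mostly below 0 in their values. In the natural killer and cytotoxic list 17 of 22 members were negative (median -0.18), 5 had an unadjusted p below 0.05 and lower values, 2 had higher values (3.08% and 4.94% of all genes), and PRF1 was the 1 member called, against 0.0185% of all genes called lower. KLRF1, an activating receptor of killer cells, was at -0.49 (FDR 0.406). FCRL3 and TBX21, the T-bet factor of type 1 immunity, were at 0.25 and 0.20 without passing. The alpha-beta T cell list had 20 of 25 negative values (median -0.07), with UBASH3A at -0.20. The checkpoint list had 10 of 18 negative (median -0.04), with BTLA at -0.30 and ICOS at -0.16.

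Granulocyte, monocyte and inflammation lists held no called member in healthy cattle, where 0.136% of all genes were called. The eosinophil and basophil list had 13 of 16 negative values (median -0.14). Its leading members MS4A2, a chain of the IgE receptor (medians 8.71 and 6.12 CPM, log2 fold change -0.53, FDR 0.358), and HRH4, a histamine receptor (-0.44, FDR 0.358), were called lower in the fit of 25 animals together with GATA2, CYSLTR2 and PIK3R6, against 0.975% of all genes. In the neutrophil granule list 11 were positive and 11 negative (median 0.01), with LCN2 at 0.35 (FDR 0.242) and ANXA1 at -0.33 (FDR 0.568). Mature neutrophil genes had a median of -0.11 (FFAR2 -0.38), the interleukin 1 and inflammasome list -0.17 (MEFV -0.43, IL18RAP -0.30) and the Toll-like receptor list -0.11 (LY96 -0.23, TLR5 -0.34). In the monocyte list C1QA, a chain of the first complement component, had medians of 48.98 and 71.5 CPM (0.53, SE 0.20, FDR 0.524), while LGALS3 was at -0.13 and the list median at -0.07. The fit of 25 animals called 2 of 24 monocyte members higher, C1QA (FDR 0.0935) and C1QC (FDR 0.0861), against 1.88% of all genes. It called FFAR2 (FDR 0.0333) and IL18RAP (FDR 0.0968) lower, against 0.975% of all genes. These were 1 of 19 and 1 of 18 members of their lists, and a single call says little about a list of this size. The NF-kB feedback list had a median of 0.00, with CXCL2 at -0.94 and CCL3 at 0.38. None of the 7 cathelicidin genes in the table was expressed enough to be tested.

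Stress, clock and hormone lists held no called member in healthy cattle either, again against 0.136% of all genes. The glucocorticoid-induced list had 16 of 20 negative values (median -0.12), with ZBTB16 at -0.40 (FDR 0.413) and 0 called. The fit of 25 animals called 3 of 20 lower, DUSP1, CXCR4 and ZFP36L2, against 0.975% of all genes. Its members with an unadjusted p below 0.05 were 3 lower and 1 higher in healthy cattle and 8 lower in BRD cattle. Immediate early genes had 18 of 21 negative values (median -0.14; EGR2 -0.32, FOS -0.34). In the circadian list BHLHE41, a repressor of the clock, had medians of 6.72 and 13.1 CPM (1.05, SE 0.33, FDR 0.427; called higher in the fit of 25 animals at FDR 0.0309) and ARNTL, a core clock activator, was at -0.10. Cytosolic heat shock genes had a median of -0.04 (HSPA1A -0.11, HSPB1 -0.15), endoplasmic reticulum chaperones -0.05 (SYVN1 0.10, DNAJC3 -0.06) and interferon gamma genes -0.05 (CIITA 0.12, PSMB8 0.09).

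Erythroid genes had the widest spread among animals: their summed level ran from 496 to 26300 CPM at day 13 and from 639 to 19707 CPM at day 28. Their median log2 fold change was -0.20 in healthy cattle, with 0 called and 3 members with an unadjusted p below 0.05, all higher, among them TFRC, the transferrin receptor (0.21). In BRD cattle the median was -0.70 with 16 of 32 members below an unadjusted p of 0.05 and lower. Platelet genes had 18 of 24 positive values (median 0.13), with GNG11 at 0.47 and TUBB1 at 0.35. The 37 tested genes of metallothioneins and metal transport had a median of 0.02, 0 called and 0 with an unadjusted p below 0.05, with the copper chaperones SCO2 and ATOX1 at 0.10 and 0.32 (FDR 0.623 and 0.629). The remaining lists also held no called member, against 0.136% of all genes. Their medians were 0.05 for cytosolic ribosomal proteins (RPL39 0.28, RPL7A 0.19) and for the nuclear-encoded respiratory chain (SDHC 0.11, NDUFB5 0.19), 0.01 for fatty acid oxidation (SLC25A20 0.15, ECI2 -0.21), 0.04 and 0.02 for MHC class II and class I (BOLA-DOA 0.11, TAPBP 0.29, PDIA3 -0.08) and 0.00 for glycolysis (ALDOC 0.14, GPI 0.07). The 12 tested genes of the mitochondrial genome had 11 negative values (median -0.12, lowest -0.88). Of these 12, 4 were lower with an unadjusted p below 0.05, against 3.08% of all genes. In the fit of 25 animals the other list members called were ID3, ANK1 and SLC39A9 (higher) and ICOS, BOLA-DYB, GATA1 and ND2 (lower), each named after its values were seen. That fit called 1.88% of all genes higher and 0.975% lower, so such single members say little about their lists.

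**Figure D5:**
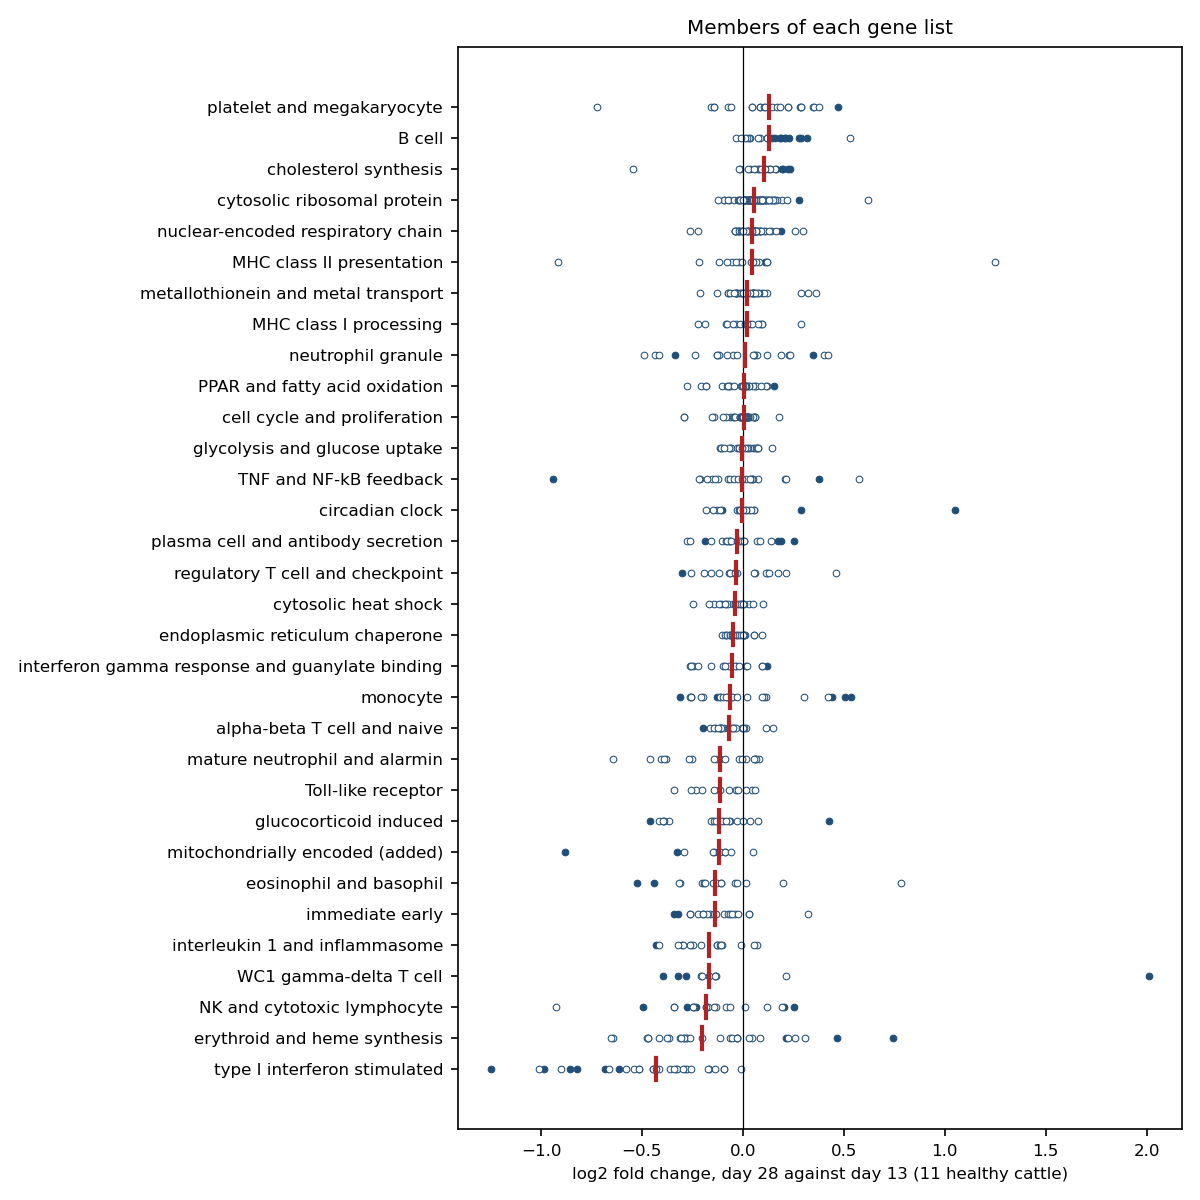
Log2 fold change from day 13 to day 28 (horizontal axis) of every tested member of each gene list in 11 healthy cattle, as circles that are filled where the unadjusted p was below 0.05. The red bar is the list's median, which is lowest at -0.43 for the interferon list, while the B cell median is 0.13.

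The 3 supplements were compared by a test of whether the change differed among them. Pen groups, not single animals, were assigned to a supplement. The COMBO cattle were all of pen 5, the INR cattle of pens 3 and 4 and the AAC cattle of pens 2 and 8. Supplement and pen group therefore cannot be told apart here. No gene passed in the joint test over 16184 genes (0%), where 462 had an unadjusted p below 0.05. DESeq2 called 18 genes and limma voom 0. The contrast of COMBO with INR came closest, at a smallest FDR of 0.405, in FDPS, a farnesyl pyrophosphate synthase, with a log2 difference COMBO minus INR of -1.07 (SE 0.15), and in VHL, an oxygen-sensing ubiquitin ligase part, at -0.91 (SE 0.14). HNRNPA3, an RNA-binding protein, was at 1.83 (SE 0.31, FDR 0.726) in the same contrast. Of the called genes, FCRL6 rose by 1.45, 1.51 and 1.10 on the log2 scale in AAC, COMBO and INR cattle, and GPR82 was at -0.57, -0.73 and -0.35. Among the interferon genes OAS1Y was at -2.37, -0.30 and -1.28 in the same order. Fitted alone, none of the supplements gave a called gene, with 546, 359 and 369 higher and 392, 246 and 419 lower genes at an unadjusted p below 0.05.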

How the data were processed

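Gene-level counts of 129 whole-blood libraries were deposited by the authors as 1 table. Per the labels and the study's methods, reads were trimmed with Trimmomatic (0.39), aligned to ARS-UCD1.3 with HISAT2, assembled with StringTie (2.2.0) and turned into counts from transcript coverage and a read length of 150 bases, so each count is an estimate from coverage. HISAT2 is given as 2.1.1 in the submitters' notes.

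Groups came from the labels. Genes were kept by filterByExpr over the 22 libraries (16184 of 32395). TMM factors, a common dispersion (0.0602) and edgeR 4.0.16 quasi-likelihood tests with animal as a block were used in R 4.3.3, with Benjamini-Hochberg adjustment over all genes. CPM values are TMM-scaled. Libraries of the same animal deviated together (correlation 0.252 to 0.510, and 11 of 11 animals matched best with themselves). Same-animal pairs come from the animal numbers in the labels. No library was a copy of another. The test was also run on simulated counts over 16184 genes, in which 100 genes were changed by 0.5 and 100 by 1 on the log2 scale. Counts were drawn from a negative binomial distribution with a dispersion for each gene, and a changed gene had the same change in every animal. Of the genes changed by 0.5, 62% were recovered, and of those changed by 1, 83%, while 11.6% of calls were false. The deposited data need not follow these settings, so the shares do not give the power of the test on them. Gene names follow the table, and 14870 of 16184 tested genes matched a RefSeq symbol or synonym (ARS-UCD2.0). An animal whose day 13 library the authors had removed has no pair. It was used only in the alternative fit of all 5 days, which took all 59 libraries of healthy cattle. Each SE is the absolute log2 fold change divided by the square root of the quasi-likelihood F statistic. It thus covers variation of the change among these animals as well as counting error. With animal as a block, p-values test the change within animals, or its difference between sets of animals, against that variation.

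Named genes were the 10 with the smallest p that were called higher and are not LOC genes, the 5 lowest by p that were lower (3 called), the first 2 of each gene list, the first 3 of each interaction test, and LOC genes among the top 10. The other called genes were named after their values were seen. A few genes that the rule names are not reported here. The members, lists and tests were chosen with earlier results of these data known. Alternatives were another scaling, filter, dispersion and tool, a fit without the block, all 5 days, each supplement alone and each animal left out. DESeq2 1.42.0 and limma 3.58.1 were used for these.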

Additional observations from a re-analysis of the deposited data

How the results depend on the processing

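Against 19 genes higher and 3 lower, the calls at FDR below 0.10 changed as follows. Without the animal pairing (no replicate block) there were 0 and 0, and 0 genes were then shared between healthy and BRD cattle against 5. With RLE factors 9 were higher, with no filter on low counts 7, with the stricter filter 11, with limma voom 11, and with all 5 days of healthy cattle 8 higher and 1 lower. Trended dispersion gave 21 and 3. DESeq2 gave 160 higher and 47 lower, and both included all 22 genes. At FDR below 0.05 there were 0 and 0, also for the genes shared with BRD cattle, and each supplement alone gave 0 and 0. The fit of 25 animals gave 307 and 159. Leaving out 1 animal gave 0 to 34 higher and 0 to 3 lower. The interaction with disease had 2 calls and that with supplement 18 under DESeq2, against 0 in the other settings. The cause of these differences was not tested. Of 2005 values of named genes under the alternatives, 1992 kept their direction. Those that reversed were of genes not called: PSMB8 at -0.12 (AAC alone) and -0.023 (COMBO alone), FFAR2 at 0.041 and CXCL2 at 0.077 (INR alone), EGR2 at 0.14 (AAC alone), TAPBP at -0.17 (COMBO alone), PDIA3 at 0.0048 (INR alone), TUBB1 at -0.11, ATOX1 at -0.12 and ALDOC at -0.0072 (AAC alone), HSPB1 at 0.033 (COMBO alone), and, with BRD cattle added, PLK1 at -0.0049 and ECI2 at 0.059. PYGM, COX6B2, AMZ1, FCRL6 and PANX2 had means under 2 CPM, where few reads limit precision.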

Other observations

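APH1B, a subunit of the gamma-secretase protease, was not called, and its levels spread more widely among animals at day 28 than at day 13. At day 13 it lay between 5.13 and 7.08 CPM in all 11 healthy cattle, and at day 28 between 0.613 and 6.14 CPM (median 1.70), lower in 10 animals. Its log2 fold change was -1.44 (SE 0.32, FDR 0.214), against 0.19 (SE 0.34) in BRD cattle, and the difference of 1.64 (SE 0.50) had p = 0.0028 and FDR 1. NFS1, the cysteine desulfurase that supplies sulfur for iron-sulfur clusters, went the other way, from a median of 0.965 CPM (0.271 to 4.29) to 2.93 CPM (0.532 to 7.53), higher in 11 of 11 animals (log2 fold change 1.53, SE 0.31, FDR 0.149). In BRD cattle it was at 0.75 (SE 0.37). Both genes were named after their values were seen. On the other days the medians of APH1B were 6.19 CPM on day 0, 6.19 on day 45 and 4.68 on day 60, with the lowest animals at 1.12, 1.21 and 1.09 CPM.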
